A study of Mus musculus with 2 samples.

Results

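The 10 non-clustered delta protocadherins Pcdh1, Pcdh7, Pcdh8, Pcdh9, Pcdh10, Pcdh11x, Pcdh17, Pcdh18, Pcdh19 and Pcdh20 were followed in total RNA from the left cerebral cortex of newborn mice. They were chosen by gene symbol, not by a measured value, from 55536 annotated genes, and all 10 were found. Earlier results of these data were known when they were chosen. The tissue came from female B6CASTF1/J mice, a cross of the strains C57BL/6J and CAST/EiJ, aged 4 days after birth. Every library started from 300 ng of RNA with ERCC spike-in RNAs added. There was 1 group of 2 libraries, called replicate 1 and replicate 2 after the labels. No genotype, treatment or time was contrasted, so no difference between conditions could be tested. The labels number the animals differently but give both the same donor identifier, so the labels do not settle whether the animals were separate. The p-values below set a difference between these 2 libraries against counting error only. They take in no other spread between animals or preparations, and a difference so called may be technical. The copies of the parental strains were not separated, and Pcdh11x and Pcdh19 lie on the X chromosome.

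Delta protocadherins are single-pass adhesion proteins whose outer cadherin repeats bind the same protein on a neighbouring cell, and they take part in cell sorting, axon growth and synapse formation in the developing brain. The family is divided by the number of outer repeats and by short conserved stretches of the tail: the delta-1 group holds Pcdh1, Pcdh7, Pcdh9 and Pcdh11x, and the delta-2 group holds Pcdh8, Pcdh10, Pcdh17, Pcdh18 and Pcdh19. Delta-1 tails carry a stretch that binds the catalytic subunit of protein phosphatase 1, while tails of several delta-2 members recruit the WAVE complex, which drives branching of actin filaments. Pcdh20 was placed in neither group here. The clustered protocadherins, used below for comparison, are encoded by the alpha, beta and gamma arrays.

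The gene tables summed to 29310533 and 28844674 expected counts over annotated genes in replicates 1 and 2. Levels are in TPM, which divides counts by transcript length and scales each library to the same total, and can be set side by side between genes. They come from the first of 2 quantifications that were deposited for the same reads; the other is called the second table. Neuronal markers summed to 2116 and 2057 TPM over 7 genes, and the mature oligodendrocyte gene Mog was at 0.0800 TPM. Choroid plexus markers (4 genes, none at 0) summed to 213 TPM in the library of replicate 1 but 3.74 TPM in that of replicate 2. Most of the larger sum was a single gene, Ttr (206.4 against 1.94 TPM). The rest were low: Folr1 (4.13 against 0.69 TPM), Clic6 (1.65 against 0.53 TPM) and Kl (0.75 against 0.58 TPM). Blood markers (3 genes, none at 0) summed to 327 and 41.7 TPM. The libraries thus stood apart in the choroid plexus sum, chiefly through Ttr, and in the blood sum. The part of this difference in the results on the protocadherins was not tested.

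All 10 genes reached 1 TPM in both libraries, against 27.6% of all annotated genes and 59.6% of protein-coding genes. Their median mean level was 45.0 TPM, and that of the 13137 detected protein-coding genes was 17.2 TPM. In this bulk tissue, fewer cells that express a gene and less RNA per cell cannot be told apart. Pcdh10, Pcdh9 and Pcdh1 were the highest of the family, and Pcdh18 and Pcdh20 the lowest. At the gene level the deposited posterior SD of the count was 0 for all 10 genes in both libraries. The first table thus split no read between a member and another gene. In the second table the summed counts of some members were not whole numbers, such as those of Pcdh17 (6816.84 and 6714.31).

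Among the delta-1 genes, Pcdh9 (ENSMUSG00000055421.8, chr14:93013410-93890679, minus strand) measured 73.2 TPM in replicate 1, 88.6 TPM in replicate 2, or 80.9 ± 10.9 TPM (SD, n = 2). Pcdh1 (ENSMUSG00000051375.15, chr18:38185914-38212053, minus strand), also an adhesion protein of airway epithelium, was at 72.7 and 77.1 TPM, or 74.9 ± 3.13 TPM. The ranges of Pcdh9 and Pcdh1 overlapped, so their order was not resolved. Pcdh7 (ENSMUSG00000029108.14, chr5:57717967-58133230, plus strand), whose tail is known to bind the phosphatase inhibitor Set, was at 54.8 and 58.8 TPM, or 56.8 ± 2.80 TPM. Pcdh11x (ENSMUSG00000034755.18, chrX:120290259-120910619, plus strand) was at 20.8 and 21.7 TPM, or 21.2 ± 0.615 TPM. Pcdh11x was the lowest delta-1 gene in both libraries, below each library's value of the other delta-1 genes.

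Among the delta-2 genes, Pcdh10 (ENSMUSG00000049100.15, chr3:45378398-45435623, plus strand), which acts in synapse elimination downstream of Mef2 factors and Fmr1, was at 90.4 and 93.3 TPM, or 91.9 ± 2.07 TPM. It ranked 1133 of the 13137 detected protein-coding genes. Pcdh19 (ENSMUSG00000051323.16, chrX:133582860-133688987, minus strand), the gene mutated in an epilepsy that affects mostly girls, was at 45.5 and 47.8 TPM, or 46.7 ± 1.58 TPM. Pcdh8 (ENSMUSG00000036422.10, chr14:79766775-79771312, minus strand), an activity-induced protein that drives internalisation of N-cadherin through the kinase Taok2, was at 45.2 and 41.4 TPM, or 43.3 ± 2.67 TPM. Pcdh8 was the one member with the higher TPM in replicate 1. Pcdh17 (ENSMUSG00000035566.7, chr14:84443563-84539002, plus strand), known from axon extension and presynaptic assembly, was at 29.0 and 30.7 TPM, or 29.9 ± 1.16 TPM. Pcdh18 (ENSMUSG00000037892.13, chr3:49743296-49757325, minus strand), which binds the reelin adaptor Dab1, was at 12.6 and 12.9 TPM, or 12.8 ± 0.184 TPM. Pcdh20 (ENSMUSG00000050505.7, chr14:88464743-88471396, minus strand) was at 6.82 and 7.88 TPM, or 7.35 ± 0.750 TPM, and ranked 9629. Pcdh20 was the lowest of the family in both libraries, and Pcdh18 stood above it in both.

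**Figure D1:**
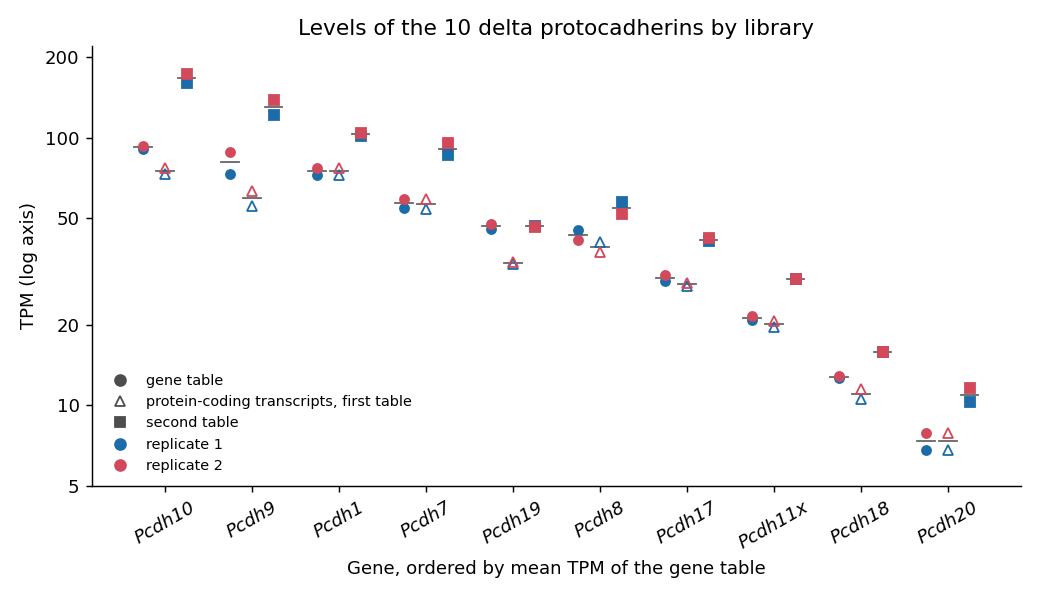
TPM (log axis) of each gene in replicate 1 (blue) and replicate 2 (red): filled circles are the gene table, open triangles the protein-coding transcripts of the first table alone, squares the second table, and short lines the mean of the libraries. Pcdh10 is highest and Pcdh20 lowest in the gene table and in the second table, while the triangles fall below the circles most for Pcdh9, Pcdh10 and Pcdh19.

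Of the 9 pairs of neighbours in this order, 8 were apart, meaning that both libraries of one gene were above both libraries of the other; Pcdh9 and Pcdh1 were the pair that overlapped. In the second table all 9 pairs were apart, with Pcdh8 (54.6 ± 4.05 TPM) above Pcdh19 (46.6 ± 0.259 TPM), the reverse of the gene table. With 2 libraries a side, an exact permutation test cannot go below p = 0.333, and none was run. The second table also gave higher levels in general: its TPM was a median of 1.51 times that of the gene table over detected protein-coding genes. Over the members this ratio ran from 0.998 for Pcdh19 to 1.82 for Pcdh10. After both tables were rescaled to nuclear protein-coding genes, the median ratio was 0.941, and the members ran from 0.622 for Pcdh19 to 1.13 for Pcdh10. Pcdh19 had the lowest ratio and Pcdh10 the highest of the 10 genes before and after rescaling. In each table rescaling moves all genes of a library by 1 factor, so it could hardly change this order.

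Summed, the delta-1 genes reached 221 TPM in replicate 1, 246 TPM in replicate 2, and the delta-2 genes at 223 and 226 TPM. The log2 ratio of delta-1 to delta-2 was 0.06 ± 0.09 (SD, n = 2), with opposite signs in the libraries, so the groups were not separated in the gene table. In the second table it was 0.07 and 0.16, and over the protein-coding transcripts alone 0.12 and 0.22, positive in both libraries. All 10 genes together made 451 and 480 TPM, and the 57 clustered protocadherin genes, of which 56 were detected, made 524 and 543 TPM. The log2 ratio of the members to the clustered genes was -0.20 ± 0.03. The clustered genes thus summed higher, from more genes: their median was 7.36 TPM a gene. Pcdh10 alone held 19.7% ± 0.423 of the members' TPM, and Pcdh10, Pcdh9 and Pcdh1 were the largest contributors in both libraries. Outside both families, Pcdh15, the tip-link protein of hair cells, was at 15.1 and 21.8 TPM, and Pcdh12, a protocadherin of endothelium, was at 1.90 and 2.04 TPM.

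Most members encode their outer domain in a single large exon. In the leading complete coding transcript of 9 of the 10 genes the largest coding exon had at least 2000 bases, a length that 3.81% of the 13098 detected protein-coding genes with a complete coding transcript reached. That exon held from 62.2% of the coding bases in Pcdh11x to 95.4% in Pcdh20, against a median of 26.5% over all those genes. Pcdh1 was the exception: its leading complete transcript, Pcdh1-203, had 1080 coding bases with a largest coding exon of 837 bases, whereas Pcdh1-201 and Pcdh1-202 hold a coding exon of 2277 bases. Pcdh1-203 took 34.4% and 35.1% of the gene's TPM, close to Pcdh1-204, an incomplete coding model, with 40.8% and 39.7%. Pcdh1-201 and Pcdh1-202 encode the same 3114 bases, and the tables divided their reads differently. The first table gave Pcdh1-202 19.3% ± 0.428 and Pcdh1-201 3.03% ± 0.875, and the second table gave Pcdh1-202 0.127% ± 0.109 and Pcdh1-201 22.6% ± 0.561. Pcdh20-201 and Pcdh20-202 likewise encode the same 2856 bases, and Pcdh20-201 took 59.1% ± 1.63 of TPM by the first table but 46.2% ± 1.87 by the second.

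Alternative splicing in this family is known mostly for changing the cytoplasmic tail. The sequences below are the alternative coding segments of the 5 genes for which the transcripts could be compared, read from the mm10 genome on the strand of the gene. Capitals mark the alternative segment, and the lower-case bases on either side, 15 each or 4 for Pcdh8, are the coding bases next to it in the transcript named. All 7 segments are multiples of 3 bases long, so inclusion or skipping keeps the reading frame. The Pcdh7 and Pcdh8 segments lengthen an exon at its 3′ end and start with the letters GT, the letters at which the shorter form is spliced. They are, in order, the cassette exon of Pcdh19-202 (chrX:133682092-133682232, minus strand), the exon extension of Pcdh8-201 (chr14:79768497-79768787, minus strand), the exon extension of Pcdh7-203 (chr5:57913349-57913372, plus strand), the small exons of Pcdh11x-203 (chrX:120637595-120637624 and chrX:120811140-120811163, plus strand), and the cassette exon and exon extension of Pcdh9-208 (chr14:93560476-93560577 and chr14:93326755-93326880, minus strand).
Pcdh19 cassette exon: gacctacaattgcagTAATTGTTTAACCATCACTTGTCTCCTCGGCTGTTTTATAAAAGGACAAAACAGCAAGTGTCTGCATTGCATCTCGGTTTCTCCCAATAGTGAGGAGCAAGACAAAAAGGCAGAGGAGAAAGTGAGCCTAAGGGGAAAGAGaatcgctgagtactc
Pcdh8 first exon extension: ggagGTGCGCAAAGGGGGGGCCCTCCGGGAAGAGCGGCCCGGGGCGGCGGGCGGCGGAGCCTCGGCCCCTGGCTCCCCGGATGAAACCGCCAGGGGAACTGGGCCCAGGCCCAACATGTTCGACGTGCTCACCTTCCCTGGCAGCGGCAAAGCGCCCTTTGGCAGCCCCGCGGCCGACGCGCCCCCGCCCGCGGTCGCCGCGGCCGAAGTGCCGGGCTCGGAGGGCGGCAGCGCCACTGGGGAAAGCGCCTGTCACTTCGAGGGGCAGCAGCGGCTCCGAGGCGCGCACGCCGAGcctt
Pcdh7 exon extension: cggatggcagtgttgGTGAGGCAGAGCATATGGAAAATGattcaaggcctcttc
Pcdh11x first small exon: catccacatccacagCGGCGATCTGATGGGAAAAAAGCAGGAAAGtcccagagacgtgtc
Pcdh11x last small exon: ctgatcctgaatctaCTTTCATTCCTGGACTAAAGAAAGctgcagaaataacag
Pcdh9 cassette exon: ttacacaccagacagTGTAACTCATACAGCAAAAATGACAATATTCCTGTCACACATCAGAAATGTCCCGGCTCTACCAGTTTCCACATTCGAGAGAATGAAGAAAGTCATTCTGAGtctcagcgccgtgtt
Pcdh9 exon extension: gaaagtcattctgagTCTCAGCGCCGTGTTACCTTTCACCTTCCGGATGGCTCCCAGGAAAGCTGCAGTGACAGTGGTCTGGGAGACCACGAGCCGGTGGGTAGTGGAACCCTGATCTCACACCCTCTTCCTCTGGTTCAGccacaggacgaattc

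Inclusion was taken as the TPM of protein-coding transcripts with the segment over the TPM of those that hold or skip it. The annotated transcripts with and without a segment also differ in their untranslated ends, for Pcdh8 by a few bases only, so these shares rest on more than the reads over the segment. The Pcdh19 exon of 141 bases was included in 73.8% of TPM in replicate 1 and 73.2% in replicate 2, and in 69.0% and 67.3% in the second table. The form with the exon was thus the main form of Pcdh19 in both libraries and both tables, and the difference between tables was larger than that between libraries. The Pcdh8 extension of 291 bases, with a GC content of 76.6%, was included in 65.8% and 57.7%, and in 71.1% and 63.5% in the second table. For Pcdh8 replicate 1 was higher in both tables. The Pcdh7 extension of 24 bases was included in 71.8% and 77.3%, and in 65.2% and 72.9% in the second table. For Pcdh7 replicate 2 was higher in both.

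The small exons of Pcdh11x, of 30 and 24 bases, occur in the same transcripts and so share 1 value. They were included in 48.6% and 54.1% of TPM, and in 54.1% and 56.8% in the second table, so neither form led by much. The Pcdh9 cassette exon of 102 bases was included in 20.98% and 26.2%, and in 26.8% and 37.0% in the second table. It was the one segment of the 7 that the larger part of the transcripts skipped in every library and table. The Pcdh9 extension of 126 bases was included in 75.1% and 71.1%, and in 79.2% and 84.1% in the second table. Its libraries were ordered oppositely in the tables.

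**Figure D2:**
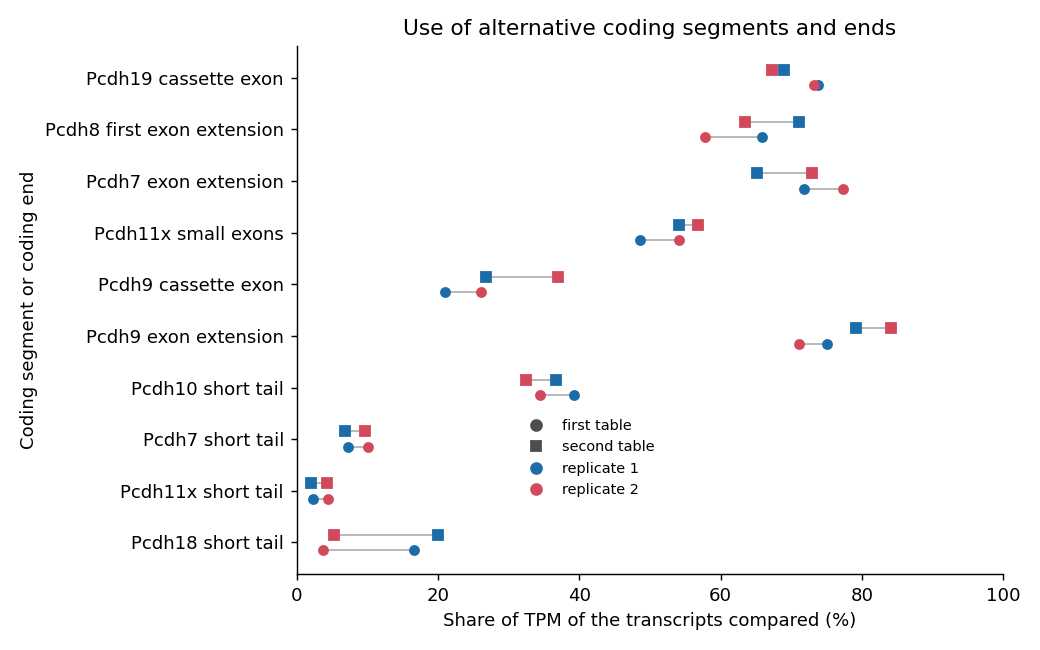
Share of TPM (%) of the protein-coding transcripts compared that hold each alternative coding segment, or that end in the short tail, in replicate 1 (blue) and replicate 2 (red), for the first table (circles) and the second (squares). The Pcdh19 exon lies between 67.3% and 73.8%, the Pcdh9 cassette exon between 20.98% and 37.0%, and the Pcdh18 short tail is farther apart between libraries than any other item.

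Pcdh10 transcripts end in 4 different ways, which are shown because the end sets the tail of the protein. Capitals mark the coding bases that follow the last shared splice site, stop codon included, and the lower-case letters are the 15 coding bases before them. In Pcdh10-204, which has a single exon, the coding region runs on past the end of the large first exon into bases that the other forms splice out, and its capitals start with GT. The ends lie at chr3:45432474-45432544 (Pcdh10-201), chr3:45419407-45419426 (Pcdh10-202), chr3:45399323-45399363 (Pcdh10-203) and chr3:45381884-45381943 (Pcdh10-204), all on the plus strand.
Pcdh10-201: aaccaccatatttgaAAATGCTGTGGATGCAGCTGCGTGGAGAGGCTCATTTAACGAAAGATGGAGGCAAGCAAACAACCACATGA
Pcdh10-202: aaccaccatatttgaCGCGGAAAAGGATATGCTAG
Pcdh10-203: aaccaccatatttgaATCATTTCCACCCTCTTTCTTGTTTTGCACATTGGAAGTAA
Pcdh10-204: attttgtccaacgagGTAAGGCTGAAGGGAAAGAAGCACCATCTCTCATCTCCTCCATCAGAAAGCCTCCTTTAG

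Of the protein-coding TPM of Pcdh10, the short tail of Pcdh10-204 took 39.3% in replicate 1 and 34.4% in replicate 2, and 36.7% and 32.5% in the second table. The long-tailed forms therefore made up most of Pcdh10 in both libraries and both tables. Reads of a single-exon model and reads of RNA not yet spliced cannot be told apart here. Among the long-tailed forms, Pcdh10-202 took 30.6% ± 1.94 of the gene's TPM in the first table, Pcdh10-203 took 11.7% ± 0.507 and Pcdh10-201 took 9.32% ± 0.883. The short tails of Pcdh7 (Pcdh7-201) and Pcdh11x (Pcdh11x-208) were set against the long-tailed coding transcripts of their gene only. They held 7.25% and 10.1%, and 2.29% and 4.44%, of the TPM compared. Both were minor forms and higher in replicate 2, also in the second table. Pcdh18-202, the short-tailed form of Pcdh18, was set against Pcdh18-201 alone. It held 16.7% in replicate 1 and 3.72% in replicate 2, and 19.97% and 5.30% in the second table. Its counts were 157 and 38.7 with posterior SDs of 47.3 and 29.5 counts, so much of this count rests on reads shared with Pcdh18-201.

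The share of a gene's leading transcript, the one with the highest mean share of TPM, had a median of 54.5% over the 10 genes. Pcdh17-201 was nearly the sole form of its gene at 94.9% ± 1.67. It was followed by Pcdh18-201 at 63.3% and 84.2%, Pcdh20-201, Pcdh8-201 at 55.7% ± 5.07, Pcdh7-203 at 55.2% ± 3.67 and Pcdh19-202 at 53.7% ± 1.51. Pcdh11x-203 was at 46.4% ± 3.34, level with Pcdh11x-202 at 44.7% ± 3.85. Pcdh1-204, Pcdh10-202 and Pcdh9-204 (26.4% ± 5.34) led their genes with less. The leading transcript was the same in both libraries for 7 genes in the first table and for all 10 in the second. Between tables it was the same for 7 genes by TPM and for all 10 by counts.

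Short non-coding transcripts weighed little in counts and more in TPM, in which few reads on a short transcript make a high value. In Pcdh9, the retained intron transcript Pcdh9-203 of 656 bases held 4.13% ± 0.702 of the gene's counts but 26.4% ± 2.83 of its TPM, and 34.7% ± 0.403 of TPM in the second table. In Pcdh10, the processed transcript Pcdh10-205 of 634 bases held 1.81% ± 0.124 of counts, 18.4% ± 0.800 of TPM and 42.5% ± 2.04 in the second table, where it was the leading transcript by TPM. In Pcdh19, the nonsense-mediated decay transcript Pcdh19-204 of 335 bases held 53.8 and 54.6 counts, or 0.858% of the gene's counts, and 26.0% ± 0.282 of its TPM. The second table listed Pcdh19-204 at 0 in both libraries, and Pcdh19 was the gene with the lowest ratio of second to first table. Counted over protein-coding transcripts alone, Pcdh10 was at 75.0 ± 2.43 TPM, Pcdh1 at 74.9 ± 3.13 TPM, Pcdh9 at 59.4 ± 5.69 TPM, Pcdh7 at 56.6 ± 3.13 TPM, Pcdh8 at 39.1 ± 2.36 TPM and Pcdh19 at 34.1 ± 0.410 TPM. On that measure 7 of 9 neighbours were apart, Pcdh10 could not be separated from Pcdh1 nor Pcdh9 from Pcdh7, and Pcdh8 was above Pcdh19. Pcdh1 and Pcdh20 have no non-coding transcript in the annotation.

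**Figure D3:**
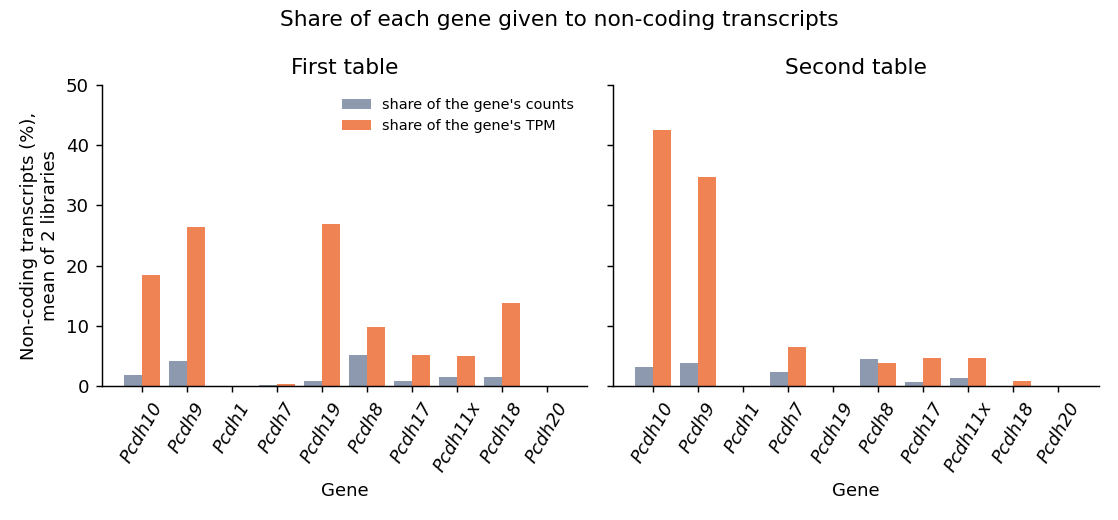
Share (%) of each gene's counts (grey bars) and TPM (orange bars) assigned to its non-coding transcripts, as the mean of the 2 libraries, in the first table (left) and the second (right). In the left panel Pcdh9, Pcdh10 and Pcdh19 carry 26.4%, 18.4% and 26.9% of TPM on at most 4.13% of counts, and Pcdh19 is at 0 in the second table.

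Counts of the libraries were compared gene by gene by an exact binomial test (two-sided, conditional on the sum of both) and Benjamini-Hochberg adjustment over 18492 genes. This test compares the libraries and says nothing on a condition. Counts differed for 23.9% of all genes tested and for 35.9% of detected protein-coding genes with at least 1000 counts in sum; among the members they differed for 2 of 10, Pcdh8 and Pcdh7, both higher in replicate 1. Pcdh8 had 3166 counts in replicate 1 and 2766 in replicate 2, a log2 ratio of 0.20 (95% interval 0.13 to 0.28, adjusted p = 1.53e-06, exact binomial test). Pcdh7 had 6732 and 6306 counts, a log2 ratio of 0.10 (95% interval 0.05 to 0.15, adjusted p = 0.000587, exact binomial test). Both were small differences, and no member reached a log2 ratio of 0.5 in size, which 5.82% of genes did together with the adjusted p. Pcdh9 had 5323 and 5606 counts, a log2 ratio of -0.07 (adjusted p = 0.0613, exact binomial test). Pcdh10 had 9375 and 9551 counts, a log2 ratio of -0.02 with a 95% interval of -0.06 to 0.02.

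TPM did not follow these counts for every member. Pcdh7 was lower in replicate 2 by counts and higher by TPM, with a log2 TPM ratio of replicate 1 over replicate 2 of -0.10. The effective length of the gene, by which the first table divides the count and which depends on the mix of transcripts assigned, was 6325 bases in replicate 1 and 5802 bases in replicate 2. Pcdh9 had a log2 TPM ratio of -0.27, and its effective length was 3744 and 3422 bases. Pcdh11x, Pcdh17 and Pcdh19 also had count and TPM ratios of opposite sign. Over all detected protein-coding genes 64.9% had the higher TPM in replicate 2, with a median log2 ratio of -0.06.

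**Figure D4:**
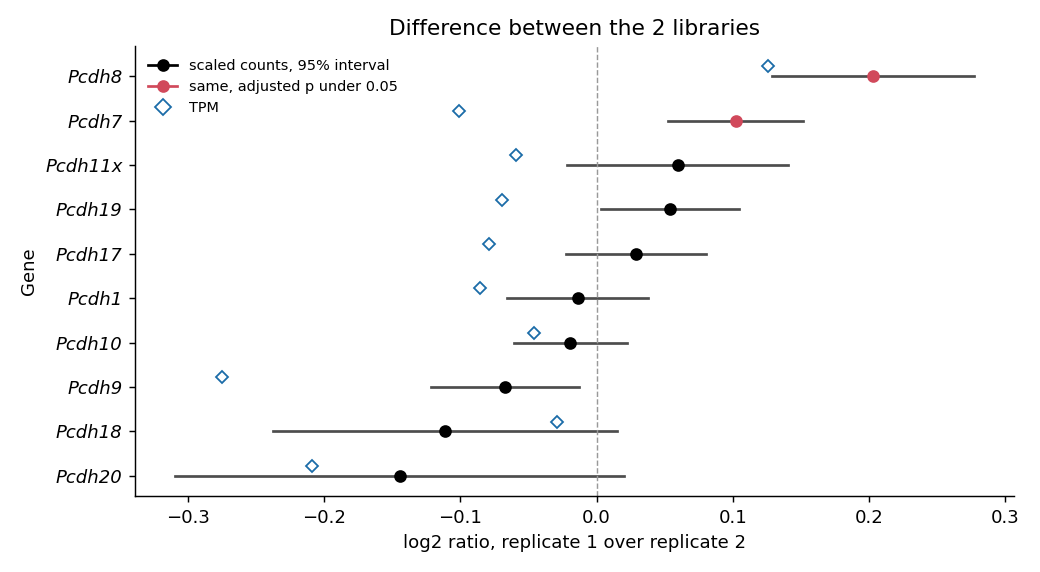
log2 ratio of replicate 1 over replicate 2 for each gene: circles are scaled counts with their 95% interval (red where the adjusted p was under 0.05), diamonds are TPM. Pcdh8 and Pcdh7 lie to the right of 0 by counts, and Pcdh7 lies to the left of 0 by TPM at -0.10.

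Loci annotated inside Pcdh7 and Pcdh9 on the same strand had the higher TPM in replicate 2, and part of them passed the test. Pcdh7 covers 415 kb and contains 14 such loci, of which 13 are TEC loci, transcribed regions that await experimental test. All 14 had the higher TPM in replicate 2; they ran from 0.240 to 2.08 TPM in replicate 1 and from 0.580 to 3.72 TPM in replicate 2. Their counts summed to 408 and 915. Of the 13 loci with at least 20 counts in sum, 10 were higher in replicate 2 by the exact binomial test and none higher in replicate 1, with a median log2 ratio of replicate 1 over replicate 2 of -1.29. Over all 1393 TEC loci tested, 38.6% were higher in replicate 2 and 0.0718% (1 locus) in replicate 1, with a median of -0.73, so the loci in Pcdh7 had the direction of their class. Gm42639, the locus with the largest ratio, had 22 and 108 counts, a log2 ratio of -2.26 (adjusted p = 6.45e-13, exact binomial test). The gene-level counts of Pcdh7 went the other way, as given above.

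Pcdh9 covers 877 kb and contains 4 same-strand loci, all with the higher TPM in replicate 2. C230086J09Rik had 127 and 213 counts, a log2 ratio of -0.74 (adjusted p = 6.54e-05, exact binomial test), and was the one called among the 3 loci tested. Pcdh11x covers 620 kb and contains 1 same-strand locus, the pseudogene Gm14927, with 0 counts in both libraries, which allows up to 3 counts in each; it was named after its values were seen. The members have 4 transcripts annotated as retained introns, which are given here although some fall below the share used for naming and were chosen after their values were seen. Pcdh9-203 had 193 and 259 counts, Pcdh17-202 had 40.1 and 64.8 counts, and Pcdh11x-207 had 22.1 and 28.1 counts. Pcdh8-203, the unspliced form of the small gene Pcdh8, had 131 counts in either library. Of the protein-coding models, the single-exon Pcdh10-204 had 2537 and 2214 counts. Counts of single transcripts were not tested, and the direction was not shared by all of these forms. Reads from a separate transcript at these loci and reads from unspliced RNA of the host gene cannot be told apart. The choroid plexus sum, chiefly Ttr, and the blood sum given above were higher in replicate 1, and the part of that difference here was not tested.

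**Figure D5:**
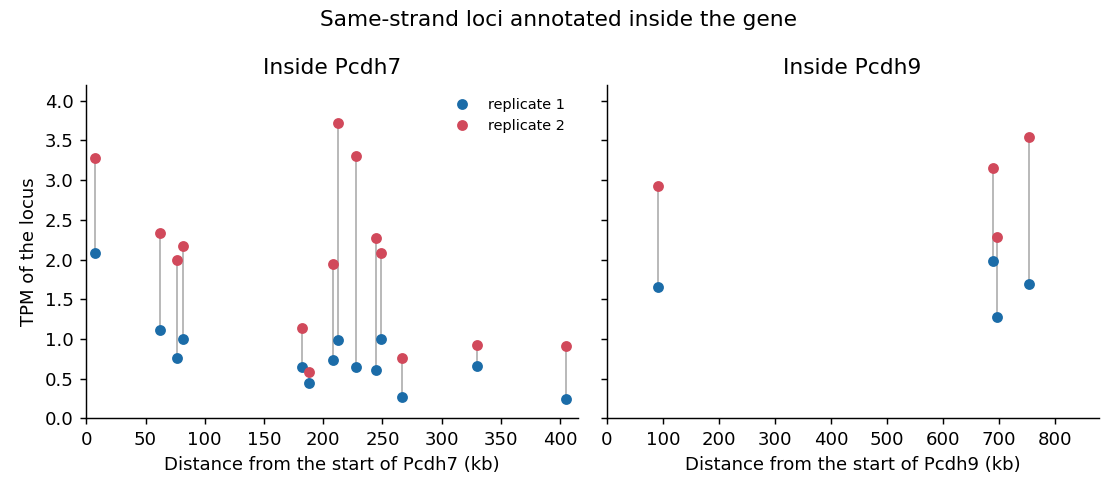
TPM of loci annotated on the same strand inside Pcdh7 (left) and Pcdh9 (right), by distance of the locus centre from the start of the gene (kb), in replicate 1 (blue) and replicate 2 (red). All 14 loci in Pcdh7 and all 4 in Pcdh9 are higher in replicate 2.

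The RefSeq promoter windows (GRCm38.p6, 300 bases around the start) of 8 members were available. Over these members the median window held 18 CpG dinucleotides and 62.5% GC, against 7 CpG and 52.7% GC over 27025 genes. Pcdh17 had 26 CpG, the most of the 8, while Pcdh20 had 4 CpG and 43.7% GC. Pcdh20, with the fewest CpG, was also the member with the lowest level. Pcdh18, the next lowest at 12.8 TPM, had 23 CpG, and Pcdh10, the highest at 91.9 TPM, had 24 CpG. These are descriptions of single windows, and no relation was tested.

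Known partners of delta protocadherins were measured from a list of 28 genes, of which 27 were detected, with a median of 86.8 TPM. For the delta-2 tails, 10 of the 11 WAVE complex genes were detected. Abi2 was at 230 ± 5.76 TPM, Nckap1 at 127 ± 0.608 TPM, Wasf1 at 109 ± 2.70 TPM and Cyfip2 at 106 ± 1.24 TPM. The blood-cell subunits were the low ones, with Nckap1l at 1.98 ± 0.318 TPM and Abi3 at 0.845 ± 0.163 TPM, which was the gene not detected. For the delta-1 tails, the phosphatase genes Ppp1cb, Ppp1ca and Ppp1cc were at 180 ± 0.403, 159 ± 1.44 and 105 ± 0.240 TPM, each above every member.

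Of the partners at the membrane, Ctnnb1 (beta-catenin) was at 365 ± 0.255 TPM, Dlg4 (PSD-95, which the Pcdh10 pathway brings to degradation) at 247 ± 1.44 TPM and Cdh2 (N-cadherin, the partner of Pcdh8) at 111 ± 2.34 TPM. Of the signalling partners, Set was at 165 ± 6.94 TPM, Nono at 119 ± 2.62 TPM, Taok2 at 83.0 ± 1.16 TPM and Dab1 at 75.6 ± 4.53 TPM. Mdm2, the ligase for PSD-95 in the Pcdh10 pathway, was at 21.6 ± 3.13 TPM, and Smad3 was lowest at 8.62 ± 0.955 TPM. Of the regulators of synapse elimination, Mef2c was at 550 ± 8.06 TPM, the highest of the list, Mef2a at 55.5 ± 2.38 TPM and Fmr1 at 39.4 ± 3.01 TPM. Whether partners and protocadherins were in the same cells is not shown by bulk RNA.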

How the data were processed

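Total RNA-seq of 2 libraries of 1 group was used. Per the deposited file descriptions, the assembly was mm10 and the annotation GENCODE M21; transcriptome alignments gave the first table and the unaligned reads the second. For the quantifiers and their versions the sources used here give no name; by the file headers, the column names are those of RSEM and kallisto. Per the file headers, the deposited expected counts and estimated counts are reads assigned to features by the authors' quantifiers. The deposited TPM values were scaled by effective length by the authors. The deposited percent values are a transcript's share of its gene's TPM, and the deposited posterior SD of a count, a score in reads, measures reads shared between features. Use of strand in counting is not given in these sources, and CAST/EiJ variants were not modelled.

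Entries other than annotated genes (26345 in the gene table, 0.330% and 0.346% of counts) stayed out of library sizes and tests. The second table's gene counts summed to 29816734 and 29854225. A gene was detected where both libraries had 1 TPM or more. Log2 ratios of summed TPM used a pseudocount of 1. Rounded expected counts of genes with at least 20 counts in sum were compared by an exact binomial test, conditional and two-sided. Library sizes were TMM-scaled (edgeR 4.0.16, R 4.3.3), with Benjamini-Hochberg adjustment at 0.05. For log2 ratios over all genes tested and of single loci, 0.5 was added to counts. The log2 ratios printed for members, with their intervals, had nothing added. Intervals are 95% Clopper-Pearson and cover counting error only; at a count of 0 the limit is 3 counts (0.102 ppm in replicate 1, 0.104 ppm in replicate 2). The test was tried on simulated counts that held counting error only. It called 95% of 200 changed genes and 0.0383% of the unchanged genes. Such counts hold no other spread, so this check does not show how the test behaves on real libraries. Other work used matplotlib 3.10.9, pandas 2.3.3, scipy 1.17.1 and numpy 2.4.6 under Python 3.11.15. Segments and ends were compared over protein-coding transcripts whose annotated coding region shows the choice.

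Named were all members with their transcripts of at least 5% of TPM in both libraries of either table, loci overlapping a member or within 10 kb of its start, Pcdh12 and Pcdh15, and, per partner class, the 4 highest and 2 lowest genes; 1 result that this rule names is not reported here. The members and lists were chosen with earlier results of these data known. Alternatives were the second table, posterior mean TPM, rescaling to nuclear protein-coding genes, other thresholds and pseudocounts, DESeq2 1.42.0 size factors or library totals, and each library left out. Counting protein-coding transcripts only was added after the data were seen.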

Additional observations from a re-analysis of the deposited data

How the results depend on the processing

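No paired analysis was possible because there is 1 group. The summed TPM of the 10 members was 466 and moved to 689 in the second table, 917 after rescaling to nuclear protein-coding genes and 406 over protein-coding transcripts; leaving out either library gave 451 to 480. The log2 ratio of delta-1 to delta-2 was 0.12 in the second table and 0.17 over protein-coding transcripts, positive in both libraries each time. In the gene table single libraries gave -0.01 to 0.12, so its sign there rests on replicate 2. The log2 ratio of members to clustered genes was -0.072 in the second table and -0.32 over protein-coding transcripts, negative in both. The count of members differing between libraries was 5 in the second table (Pcdh7, Pcdh8, Pcdh11x, Pcdh17 and Pcdh19, all higher in replicate 1). It was 3 with library totals or median-of-ratios size factors, where Pcdh9 was added, higher in replicate 2 (adjusted p = 0.00322 and 0.0382, exact binomial test). With a log2 ratio of at least 0.5 required as well it was 0, against 1077 genes in all. At the exact test's main setting 4426 genes differed, and 4049 to 5893 under the other scalings, filters and the second table. The median share of the leading transcript was 48.1% in the second table, 57.3% over protein-coding transcripts and 64.9% by counts. Counts of detected members, detected partners and separated neighbours stayed within 1.5 times under every alternative run for them. Transcript shares are limited by reads shared between forms, as the posterior SDs of Pcdh18-202 and the different division of Pcdh1-201 and Pcdh1-202 by the tables show.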

Other observations

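Around the members, 31 annotated genes overlapped a member or lay within 10 kb of its start, and 16 of them reached 1 TPM in either library. The non-coding gene 2610316D01Rik starts 0.138 kb from the start of Pcdh10 and was at 3.87 and 4.52 TPM, with 50 and 60 counts (adjusted p = 0.630, exact binomial test). 4932441J04Rik, on the strand opposite to Pcdh7, was at 1.48 and 1.58 TPM. These loci differed less between libraries than the loci inside Pcdh7 described above; the difference between the classes was not tested.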
